A study of Drosophila melanogaster with 3 samples.

Results

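The genes described here are 9 nuclear receptor genes of the ecdysone pathway: EcR, usp, Hr3, Hr4, Hr38, Hr39, Hr78, Eip78C and ftz-f1. They were taken by name, with earlier results of these data known, from 13945 protein-coding genes on the 6 major chromosome arms. What was measured at them was the binding of Methoprene-tolerant (Met), a bHLH-PAS protein that acts as a receptor for juvenile hormone. Chromatin immunoprecipitation with sequencing (ChIP-seq) was done on Drosophila melanogaster at the white prepupa stage, when the animal has just formed the puparium. There was 1 group of 3 biological replicates, each made from whole animals, males and females together, of a transgenic line that stably carries Met with GFP at its C-terminus, and the precipitation was directed at GFP. A whole animal mixes all tissues, so a peak in some cells and a weaker one in all cells cannot be told apart. Only 1 group was analysed, with no untreated or untagged group beside it, and expression of the genes was not measured. All 9 genes held a peak of the authors' reproducible list, and they held 62 peak summits in all.

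Ecdysone, the moulting steroid, acts through a heterodimer of 2 nuclear receptors, EcR and the RXR orthologue Ultraspiracle (usp). The pulse at the end of larval life switches on further nuclear receptor genes in a cascade that times metamorphosis. Juvenile hormone, the ligand of Met, modifies the response to ecdysone and is best known for holding back metamorphosis. Hr3, Hr4, Hr39, Hr78 and Eip78C encode receptors of this cascade. Hr3 acts as an activator of ftz-f1, which encodes the competence factor of mid-prepupal development, and Hr38 encodes the NR4A-type receptor that can pair with Ultraspiracle in place of EcR.

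The sequences below lie at the summits on which the results turn: the promoter summits of Hr4 and ftz-f1, the 3 strongest summits of the set, the strongest summit of Hr38 and an intron summit of ftz-f1 with a receptor site. Each runs 5′ to 3′ along the strand of its gene in build dm6 and was read from the RefSeq Release 6 genome. The windows hold the summit base and 50 bp to each side of it, except the last with 121 bp in all. A single capital marks the summit base, and runs of 6 capitals mark a match to one of the motifs named further on. The last window was added after its values were seen.
Hr4 promoter summit of rank 3368, chrX:1941858-1941958, plus strand: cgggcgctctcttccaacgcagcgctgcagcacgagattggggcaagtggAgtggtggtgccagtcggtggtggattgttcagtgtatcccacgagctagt
ftz-f1 promoter summit of rank 7085, chr3L:18765832-18765932, minus strand: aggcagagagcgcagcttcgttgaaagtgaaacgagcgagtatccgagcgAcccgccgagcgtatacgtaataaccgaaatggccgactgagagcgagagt
Eip78C intron summit of rank 58, chr3L:21253844-21253944, plus strand: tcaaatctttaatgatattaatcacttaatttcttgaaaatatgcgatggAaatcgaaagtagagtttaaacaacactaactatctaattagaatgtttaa
Hr4 intron summit of rank 61, chrX:1951857-1951957, plus strand: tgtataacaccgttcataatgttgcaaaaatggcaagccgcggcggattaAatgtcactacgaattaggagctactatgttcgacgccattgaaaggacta
Hr4 intron summit of rank 92, chrX:1947695-1947795, plus strand: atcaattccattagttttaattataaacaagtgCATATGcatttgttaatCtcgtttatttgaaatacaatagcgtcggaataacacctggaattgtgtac
Hr38 intron summit of rank 1847, chr2L:20700706-20700806, minus strand: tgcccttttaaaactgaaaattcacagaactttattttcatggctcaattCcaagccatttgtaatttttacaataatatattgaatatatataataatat
ftz-f1 intron summit of rank 3729, chr3L:18759329-18759449, minus strand: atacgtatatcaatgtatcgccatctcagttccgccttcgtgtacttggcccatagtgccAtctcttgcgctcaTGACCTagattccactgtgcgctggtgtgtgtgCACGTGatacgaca
The Hr38 and Eip78C windows are rich in A and T, with 22.8% and 23.8% G+C, whereas the Hr4 promoter window has 60.4%. In the second Hr4 intron window the 6 capitals are CATATG. In the ftz-f1 intron window they are TGACCT, which is AGGTCA on the other strand, and CACGTG.

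A peak's signal is the authors' own value in the deposited list, and its rank is its place by signal in that list. The list thresholded by the irreproducible discovery rate (IDR) held 8513 peaks and the pooled relaxed list held 30000. A gene was given every summit in its body and in the 5 kb upstream. By this rule all 9 receptor genes had an IDR summit, against 36.7% of all protein-coding genes. Within 1 kb of an annotated transcription start site (TSS) of their own, 7 of the 9 had one, against 22.2% of all protein-coding genes. The exceptions were Hr38 and Eip78C. Longer genes held a summit more often. Among genes of 20 to 100 kb, the class of 7 of the receptor genes, 72.6% had an IDR summit, and among genes of 3 to 4 kb, the class of usp and Hr78, 35.2% had one. The count of 9 therefore has to be read against these higher shares for the 7 long genes. For summits within 1 kb of a TSS no share by length or by number of starts was counted, and the 9 genes have 22 annotated starts. At Hr39 this summit was supported in replicate 2 alone.

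Summed over genes, the receptor genes held 1.65 summits per 10 kb of gene body and upstream sequence, against 0.71 for all protein-coding genes summed in the same way. The median over the 9 genes was 1.34 per 10 kb, and over genes of 20 to 100 kb it was 0.566 with quartiles of 0 and 1.25. Of the 7 receptor genes in that length class 6 lay above its median. Hr3 at 3.13 per 10 kb and Hr4 at 2.25 were the most crowded of these, above 97.1% and 91.6% of genes of that length. EcR reached 1.62, Eip78C 1.34 and ftz-f1 1.08, all above at least 69.2% of the class. Hr39 at 0.729 and Hr38 at 0.554 lay near its middle. These counts go by position alone. Of the 62 summits, 35 had a start of their own gene as the nearest, in some cases a start shared with another gene. At Hr3 this held for 5 of 12 and at Hr4 for 14 of 16. It was not counted for the other genes of the class. Of the short genes, usp held 3 summits and Hr78 held 1. Among genes of 3 to 4 kb, 4.91% held 3 or more. Joined within 500 bp, the usp summits made 2 groups, and groups were not counted for the other genes of that length.

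**Figure D1:**
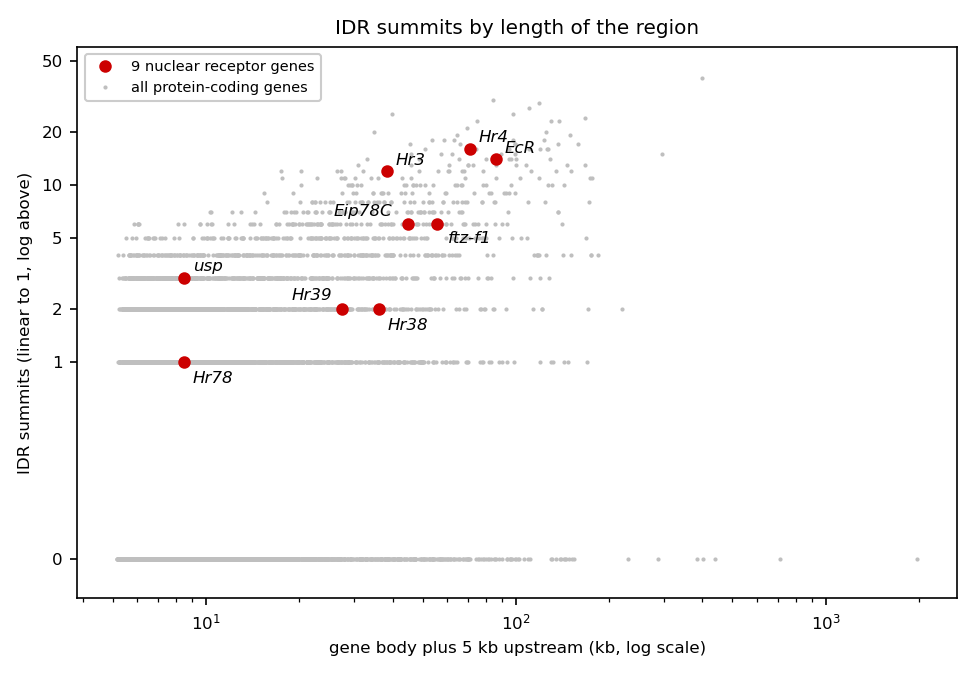
IDR summits (linear to 1, logarithmic above) against the length of gene body plus 5 kb upstream (kb, log scale), for the 9 receptor genes in red and all protein-coding genes in grey. Hr4, EcR and Hr3, with 16, 14 and 12 summits, lie above most genes of their length, and Hr38 and Hr39 with 2 each sit among the grey points.

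The 2 genes of the hormone receptor itself were bound at moderate strength, and both had summits near annotated starts. EcR (FBgn0000546, chromosome 2R, 6087873 to 6169087, minus strand) held 14 summits over 81.2 kb, with best rank 2459, and 12 of them were found in all 3 replicates. The count was 13, 14 and 12 in the lists of replicates 1, 2 and 3, a mean of 13 ± 1 (SD, n = 3). The strongest EcR summit (chr2R:6151041-6151480) had a signal of 308.4 and lay in intron 3 of EcR-RA, at +5868 bp from the TSS of EcR-RD and EcR-RE. The start of tRNA:Asn-GTT-1-1 was nearer, at +1415 bp. The summit ranked 2451, 4032 and 1794 in replicates 1, 2 and 3. The next 2 summits away from a TSS lay in the same intron. Rank 2524 (chr2R:6144341-6144508) stood at 2104, 2703 and 3228 in the replicates, and rank 3380 (chr2R:6134427-6134866) at 3373, 3157 and 5006. The nearest starts were those of tRNA:Lys-CTT-1-1 at -1990 bp for rank 2524 and CG14589 at -2656 bp for rank 3380. Of the 14 summits, 6 had a start of EcR as the nearest.

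Starts of EcR differed in whether a summit lay near them. The TSS shared by EcR-RD and EcR-RE had 3 IDR summits within 1 kb. The strongest of them, rank 2588 (chr2R:6157345-6157511), lay at -322 bp, with a signal of 296.3 and ranks of 2891, 2115 and 3071 in the replicates. The others lay at -521 bp (rank 5273, in the replicates 6381, 5546 and 5862) and at +834 bp in the 5′ UTR (rank 5732, in the replicates 6006, 4847 and 6633). The TSS of EcR-RB and EcR-RC had summits at -483 bp (rank 3701, chr2R:6132185-6132624) and -682 bp (rank 7402), and the nearby TSS of EcR-RG shared them. In replicates 1, 2 and 3 rank 3701 stood at 3260, 3937 and 6334, and rank 7402 at 7032, 7740 and 6334, the last being 1 peak matched to both. The TSS of EcR-RA, the most upstream of the gene, had no IDR summit within 1 kb. The nearest peak to it was a relaxed one at -697 bp of rank 26530, which was outside the strongest 8513 of every replicate.

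The partner gene usp (FBgn0003964, X, 2038798 to 2042311, minus strand) is short, with 3.5 kb, and all 3 of its summits lay within 500 bp of a usp TSS. The strongest, rank 2038 (chrX:2041340-2041556), lay at -169 bp from the usp-RA start. Its signal was 355.9 in the pooled list, with ranks of 1890, 2953 and 1769 in replicates 1, 2 and 3. The summit of rank 4966 (chrX:2042306-2042745; 5016, 5662 and 5973 in the replicates) lay at -215 bp from the usp-RB start, which is also a start of Actn, the gene of alpha-actinin on the same strand. The summit of rank 5115 (chrX:2041467-2041906; 5109, 7654 and 1769 in the replicates) lay at -375 bp from usp-RA, but at -181 bp from a start of CG4313, which was nearer. Peaks carry no strand, so which of these genes such a summit belongs to cannot be told apart. All 3 usp summits were found in every replicate, although in replicate 3 the ranks 2038 and 5115 matched the same peak.

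The receptors of the cascade included the strongest summits of the set. Eip78C (FBgn0004865, 3L, 21226609 to 21266503, plus strand), an early-late gene related to the Rev-erb receptors of mammals, had the best of all, rank 58. This summit (chr3L:21253667-21254135) lay in intron 3 of Eip78C-RA, at +13547 bp from the start of Eip78C-RB. Its signal was 2129.5, and it ranked 53, 71 and 58 in replicates 1, 2 and 3, so its place varied little between replicates. No TSS of Eip78C was the nearest to it: that of CG43218 was, at -4126 bp. The other 3 intron summits, of ranks 3683 (chr3L:21255994-21256433), 4321 (chr3L:21251303-21251742) and 4390, stood within 3 kb of it. Their replicate ranks lay between 2854 and 6196. The remaining 2, of ranks 4572 and 6375, lay at -1750 and -1534 bp from the 5′-most start.

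None of the 3 Eip78C starts had an IDR summit within 1 kb. At +117 bp from the Eip78C-RB start, in the 5′ UTR, there was a relaxed peak of rank 9369 with a signal of 89.4, below the lowest IDR signal of 98.7. It ranked 15175, 14754 and 6000 in the replicates, so only replicate 3 had it among its strongest 8513. All 6 IDR summits of Eip78C were found in all 3 replicates.

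Hr4 (FBgn0264562, X, 1941940 to 2007956, plus strand), which encodes an early-late receptor that acts in prepupal timing, held the largest number, 16 summits over 66.0 kb. Within 10 kb, from its promoter at -32 bp to +9967 bp, there were 9. The strongest, rank 61 (chrX:1951677-1952126), lay at +9967 bp in intron 2 of Hr4-RK, with a signal of 2105.9 and ranks of 68, 64 and 57 in the replicates. Rank 92 (chrX:1947535-1948003) lay in the same intron at +5805 bp, with a signal of 1768.1 and ranks of 111, 85 and 85. Rank 750 (chrX:1948552-1948890) followed at +6753 bp, with ranks of 912, 613 and 880. The order of these 3 was the same in every replicate.

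The Hr4 promoter summit had a lower signal than the strongest intron summits. Its summit (chrX:1941688-1942127) had rank 3368, a signal of 238.6 and replicate ranks of 4985, 3093 and 3328. A summit of rank 1687 at -1733 bp lay at -100 bp from a start of the neighbouring CG3587, which was nearer. The internal start of Hr4-RE and Hr4-RF had no IDR summit within 1 kb, the nearest being at +13737 bp in the 3′ UTR, where a start of PIG-K was nearer at +3327 bp. Of the 16 summits, 14 were found in all 3 replicates, and the lists of replicates 1, 2 and 3 held 13, 15 and 15.

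Hr3 (FBgn0000448, chromosome 2R, 10203995 to 10237348, minus strand), an orthologue of the mammalian ROR receptors, held 12 summits over 33.4 kb, and each replicate list also held 12. Its strongest, rank 337 (chr2R:10237564-10238083), had a signal of 1033.6 and ranks of 246, 511 and 422 in the replicates. It lay at -538 bp from the Hr3-RD start, but the start of Hdc, the gene of histidine decarboxylase, was nearer at -102 bp, and the summit lay inside lncRNA:CR45265. Hr3 and Hdc cannot be told apart as the gene of this summit. The best summit inside Hr3, rank 826 (chr2R:10210619-10211013), lay at +17181 bp in an intron that also holds lncRNA:CR46322, with ranks of 1173, 749 and 694. The next 2 lay in the same intron of Hr3-RD. Rank 2274 (chr2R:10219935-10220182) stood at 1850, 2099 and 3352 in the replicates, and rank 2425 (chr2R:10213718-10213931) at 3273, 2239 and 2294. The start of lncRNA:CR46322 was the nearest to ranks 826 and 2425, at +571 and -2490 bp.

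The start shared by Hr3-RA, Hr3-RF and Hr3-RH had a summit of rank 6379 (chr2R:10227943-10228382) at -206 bp, with ranks of 7963, 6057 and 5643. The start of Hr3-RC and Hr3-RI had no IDR summit within 1 kb. Most Hr3 intron summits also lay within CG12912 and CG46321, genes annotated over the same stretch. In all 3 replicates 10 of the 12 were found.

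Hr39 (FBgn0261239, 2L, 21237250 to 21259675, plus strand), the closest fly relative of ftz-f1, held the weakest set. Its stronger summit, rank 5569 (chr2L:21250420-21250859), lay in intron 2 of Hr39-RB at +13390 bp, with a signal of 151.3 and ranks of 7649, 5728 and 5112. The start of l(2)k14505 was nearer, at -10528 bp. The other, rank 7650 (chr2L:21237716-21238155), lay at +686 bp from the Hr39 start and at -365 bp from the start of mir-9374, which was nearer. It ranked 9186, 5600 and 13821 in replicates 1, 2 and 3 and so stood among the strongest 8513 of replicate 2 alone. A further Hr39 peak at +6921 bp fell just outside the threshold, at rank 8535 with a signal of 98.5. Just inside it stood a ftz-f1 summit of rank 8476 with a signal of 99.1.

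Hr78 (FBgn0015239, 3L, 21494019 to 21497494, minus strand), which encodes an orphan receptor needed at the onset of metamorphosis, had 1 summit and no relaxed peak besides. It had rank 3492 (chr3L:21497065-21497239) and lay at +1 bp from the Hr78-RE start, in the 5′ UTR, inside the antisense gene asRNA:CR43933. Its signal was 231.4 and it ranked 4228, 3008 and 3832 in the replicates. The 3 annotated starts of Hr78 all lay within 1 kb of it.

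ftz-f1 (FBgn0001078, 3L, 18750607 to 18801309, minus strand) held 6 summits over 50.7 kb, all in introns. The strongest, rank 1603 (chr3L:18756586-18756779), lay in intron 3 of ftz-f1-RB, with a signal of 421.8 and ranks of 1185, 2043 and 2015. The next, rank 3729 (chr3L:18759169-18759608), stood at 4491, 3715 and 3722 in the replicates, and rank 4549 (chr3L:18769268-18769707) at 4114, 6178 and 4732. The start of lncRNA:CR45938 was the nearest to ranks 1603 and 3729, at -2591 and -5304 bp. The promoter summit at -138 bp from the start of ftz-f1-RC and ftz-f1-RD (chr3L:18765662-18766101) was weak, with rank 7085, and its replicate ranks of 8023, 7929 and 8559 put it just outside the strongest 8513 of replicate 3. The upstream start of ftz-f1-RB, at the far 5′ end of the gene, had only a relaxed peak within 1 kb, of rank 15593. Of the 6 summits, 3 were found in all 3 replicates.

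Hr38 (FBgn0014859, 2L, 20683462 to 20714588, minus strand) held 2 summits, both found in every replicate. Rank 1847 (chr2L:20700608-20700873) lay in intron 1 at +13832 bp, with a signal of 380.7 and ranks of 2441, 1884 and 1668. The start of lncRNA:CR44187 was nearer, at -9340 bp. Rank 3334 (chr2L:20715994-20716433) lay at -1626 bp from the only annotated start, with ranks of 4052, 3400 and 3371. Only 1 further peak, of rank 19821, appeared at Hr38 in the relaxed list.

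**Figure D2:**
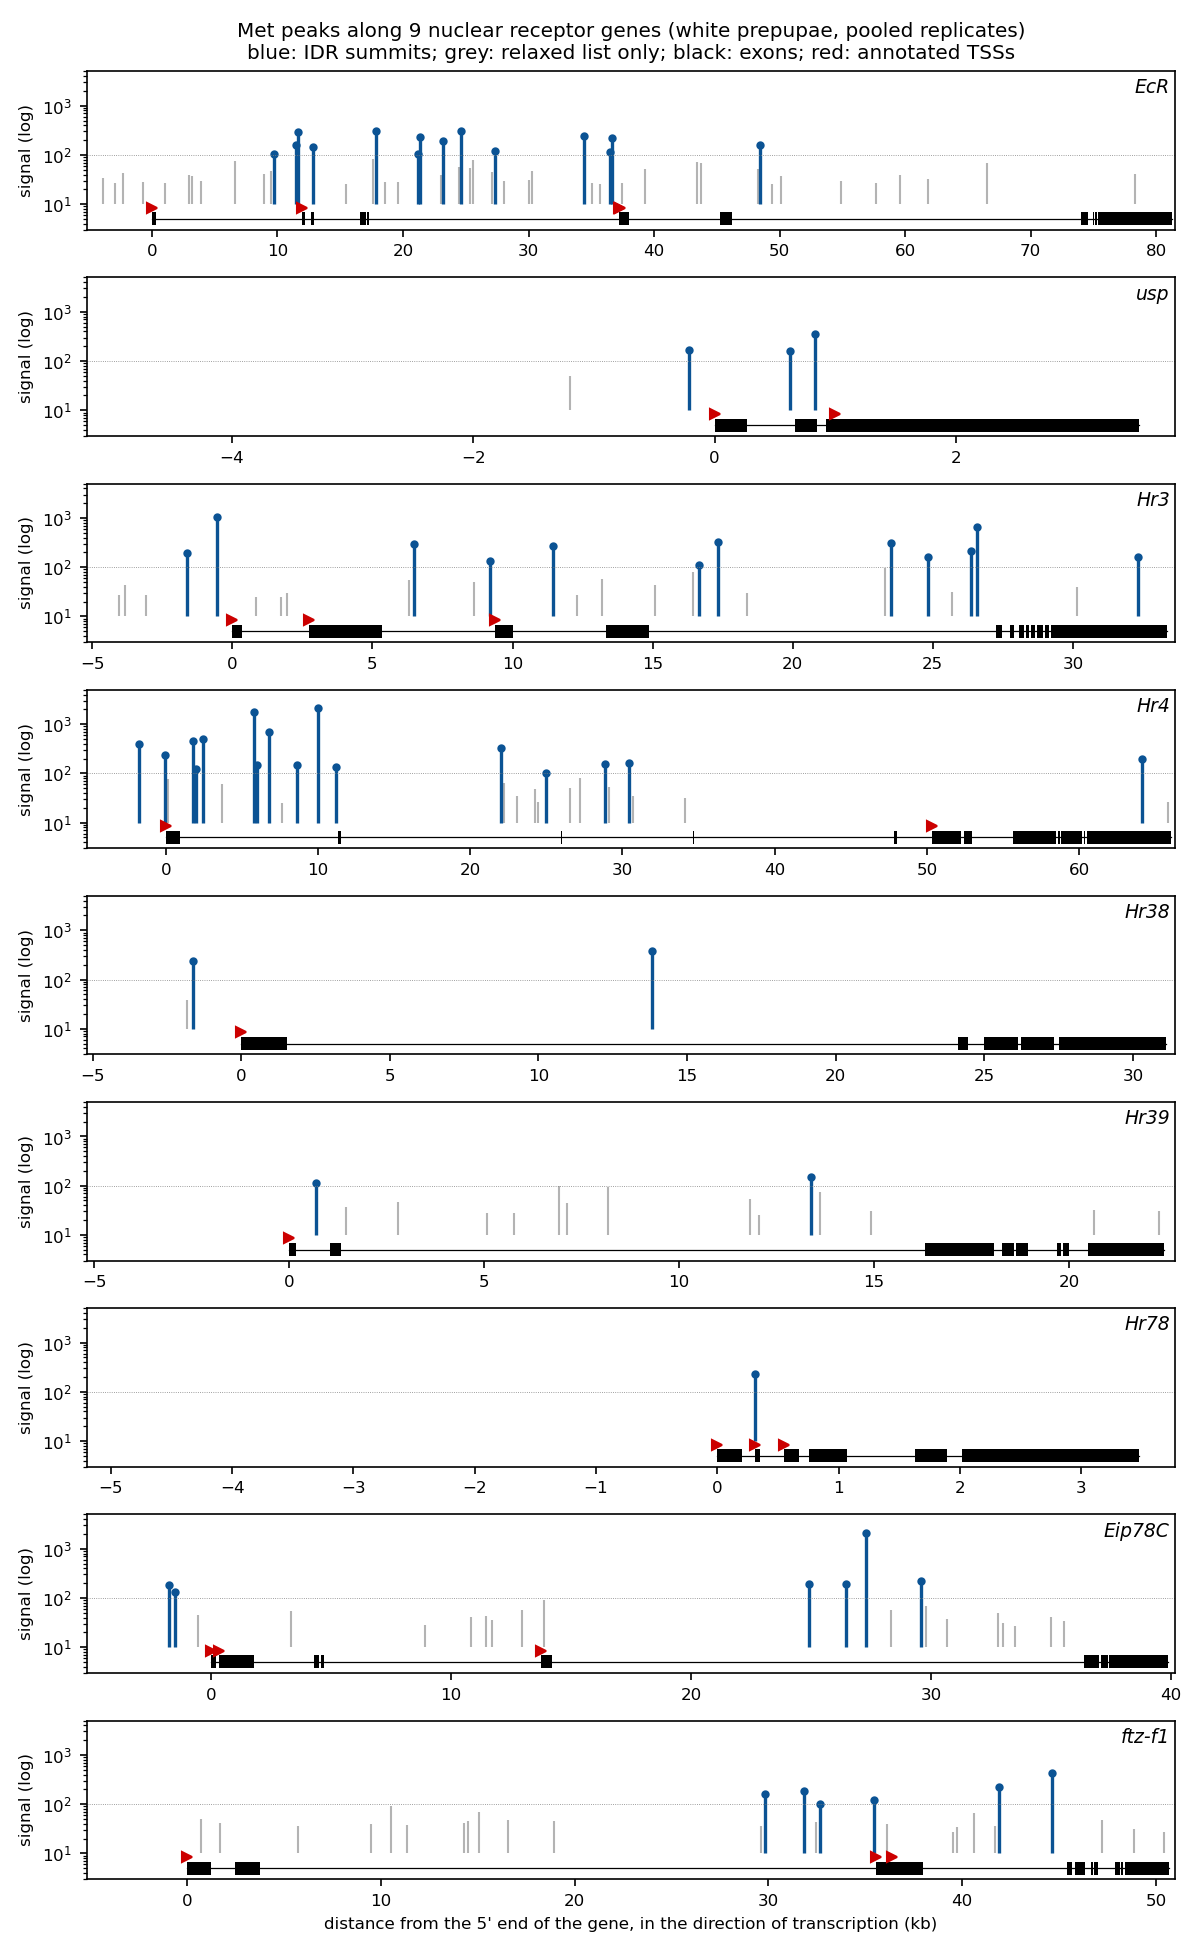
Peaks along the 9 genes: distance from the 5′ end of each gene in the direction of transcription (kb) against the authors' signal (log scale), for IDR summits (blue) and peaks of the relaxed list alone (grey). Black boxes are exons and red arrowheads annotated starts, and the dotted line marks a signal of 100. The tallest bars, at Eip78C and Hr4, stand in introns away from any arrowhead, and the usp and Hr78 summits stand at arrowheads.

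Of the 62 summits, 3 were in the top 100, which holds 1.17% of IDR peaks. In the top 851, which holds 10% of IDR peaks, there were 6, close to that share. Of these 6, 5 lay in introns, a share close to that of all 62, and the other lay between Hr3 and Hdc. The median rank of the 62 was 4317, near the middle of the list, and their median signal was 191, against 194 for all IDR peaks. Of all 62, 49 lay in introns, 8 upstream of the gene, 3 in a 5′ UTR and 2 in a 3′ UTR. Within 500 bp of an own TSS there were 9, of which 8 were on its upstream side, and 34 lay over 5 kb from any own TSS. These places were not counted for all IDR peaks, and 7 of the genes are of 20 to 100 kb. They were therefore not shown to be particular to these genes. Near the start of any gene (500 bp) lay 22.6% of the 62 summits, against 32.6% of all IDR peaks. Of the 22 annotated starts of the 9 genes, 14 had an IDR summit within 1 kb. Starts close together shared summits, such as the 3 of Hr78 with 1 summit, so the 14 are not separate. The share over the starts of all genes was not counted.

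Replicate support was counted as overlap by at least 1 bp with one of the 8513 strongest peaks of a replicate's own list. All 3 replicates held 52 of the 62 summits (83.9%), against 73.6% of all IDR peaks. Of the others 7 were in 2 replicates and 3 in 1, and none was in no replicate. Replicates 1, 2 and 3 held 59, 58 and 56 of them. The replicate lists themselves gave 59, 63 and 58 summits at the 9 genes, a mean of 60 ± 2.65 (SD, n = 3). Each list placed a summit at all 9 genes, against 40.5%, 38.1% and 39.7% of all protein-coding genes in replicates 1, 2 and 3. These shares are not matched for length, and 7 of the 9 genes are of 20 to 100 kb. In that class 72.6% of genes had a summit of the IDR list, and the share was not counted for the replicate lists. The 6 best summits kept their places closely, with a ratio of highest to lowest replicate rank of at most 2.08. Some summits are neighbours on 1 enriched stretch: joined within 500 bp, the 62 made 53 groups, and 14 of them shared a replicate peak with another summit. With summits required to lie within 150 bp of each other, 45 of 62 were in all 3 replicates. The share of all IDR peaks was not counted under this rule, so the contrast of 83.9% with 73.6% holds for the 1 bp rule only.

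**Figure D3:**
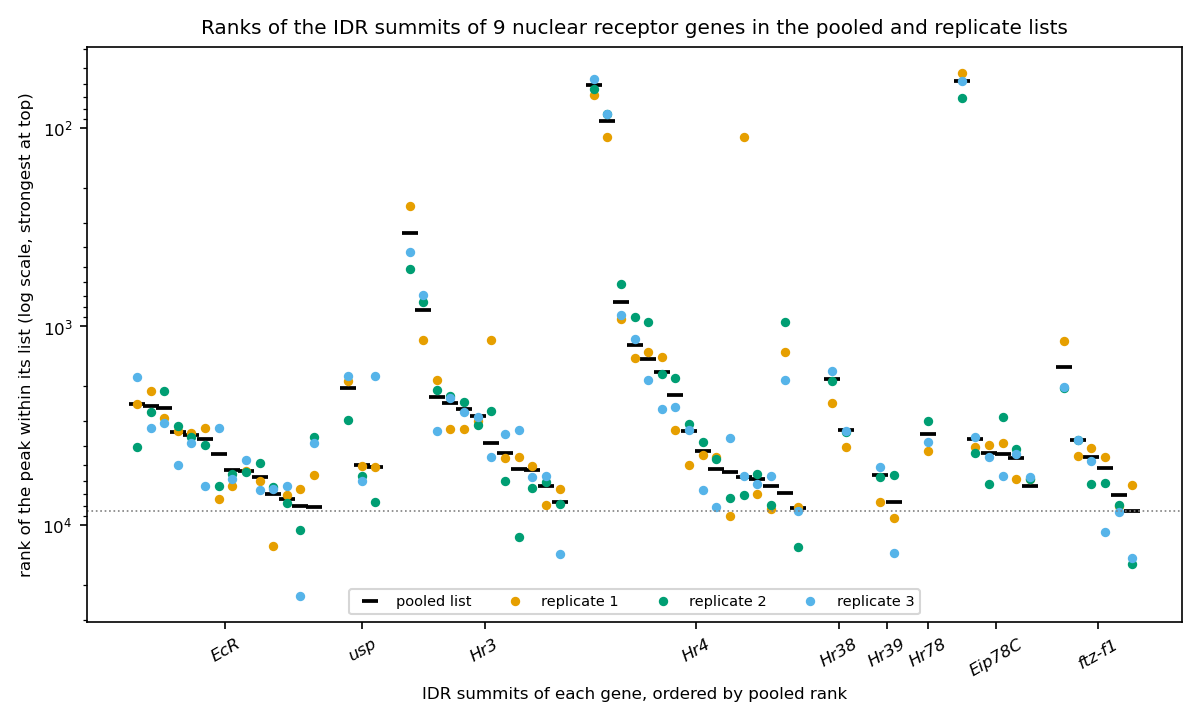
Rank (log scale, strongest at the top) of each IDR summit in the pooled list (black bars) and of its overlapping peak in replicates 1, 2 and 3 (coloured points), with the genes side by side and a dotted line at 8513. Points far above their bar are weak summits matched to a strong neighbour's replicate peak, and points below the line, such as those of Hr39 and ftz-f1, are outside a replicate's strongest 8513.

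Motifs were searched on both strands within 50 bp and within 100 bp of the summits, with the whole motif inside the window. Distances are those of the motif's middle from the summit, along the plus strand of the chromosome whatever the strand of the gene. The canonical E-box CACGTG and the C-box CACGCG, both bound by bHLH-PAS factors, were at 0 of the 62 summits within 50 bp, against 0.787% and 1.42% of all IDR summits, and a share that low leaves little to find in 62. Within 100 bp each was at 1 (1.61%). The shares of all IDR summits were then 1.91% with CACGTG and 3.17% with CACGCG. The E-box was at the ftz-f1 summit of rank 3729, with its middle at -50 bp along the plus strand and so partly outside the narrower window, and the C-box at the Hr4 summit of rank 5831, at +62 bp. The nuclear receptor site AGGTCA lay within 50 bp of 1 summit, the same ftz-f1 summit, at -16 bp (1.61%, against 1.93% of all IDR summits), and within 100 bp of 2 (3.23%, against 3.82%). The variant GGGTCA also lay at 1, the Hr3 summit of rank 2274, at -4 bp (1.61%, against 1.27%), and within 100 bp it lay at 3 (4.84%, against 3.01%). The extended site CAAGGTCA, of the type bound by Ftz-f1, and the DRE core TATCGATA were at none of the 62 within 100 bp, against 0.294% and 1.48% of all IDR summits. The extended site contains AGGTCA.

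The inverted repeat of AGGTCA with 1 base between, the form bound by EcR and Ultraspiracle, had no exact match within 100 bp of any of the 8513 summits. With 1 mismatch allowed there were 2. Of them 1 lay in the Hr3 upstream peak of rank 4313, whose summit was at -1617 bp from the Hr3-RD start. The centre of this repeat lay at -94 bp from the summit along the plus strand, and so on the side towards the Hr3-RD start. The other lay near Top1. This Hr3 summit ranked 4601, 5980 and 3490 in the replicates and lies within Hdc. AGATAA, of the GATA type, was within 50 bp of 5 summits (8.06%, against 8.11%) and within 100 bp of 9 (14.5% in both sets). GAGAGAG was within 50 bp of 3 summits (4.84%, against 1.61%) and within 100 bp of 7 (11.3%, against 4.06%), of which 3 were at ftz-f1, 2 at Hr3 and 1 each at EcR and Hr4. CATATG was within 50 bp of 2 summits (3.23%, against 3.88%) and within 100 bp of 6 (9.68%, against 7.47%), among them the Hr4 intron summits of ranks 92 and 750 and the usp promoter summit of rank 2038. These are matches of letters only.

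The receptor gene summits had a higher median G+C than the list as a whole. Within 50 bp of the summit the median G+C was 38.1% (quartiles 30 and 46.3), against 31.7% (26.7 and 38.6) for all IDR summits. In windows centred 500 bp to each side the medians were close, 43.1% against 43.6%. The summit was lower in G+C than its flanks in 58.1% of the 62, against 79.5% of all IDR summits. Away from any TSS by over 500 bp the shares were 58.3% of 48 and 82.8%, and for summits with no other IDR summit within 500 bp they were 53.3% of 45 and 80.5%. Strength moved with this: among the strongest 4256 IDR peaks 73.3% of 30 receptor gene summits were below their flanks, against 85.3% of all, and among the weaker ones 43.8% of 32, against 73.7%. Median G+C at the summit was 32.7% against 30.7% among those strongest peaks, and 43.1% against 33.7% among the weaker ones. No test was made, since summits of 1 gene are not independent.

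Among the genes, all 3 usp summits and the Hr78 summit were lower in G+C than their flanks, as were 9 of 14 at EcR and 9 of 16 at Hr4. Neither Hr39 summit was. Hr3 had 6 of 12, Eip78C 3 of 6 and ftz-f1 4 of 6. The strongest summit, at Eip78C, had 23.8% against 57.9% in its flanks, and the Hr4 summit of rank 61 had 42.6% against 57.9%. The ftz-f1 promoter summit went the other way, with 55.4% against 33.7%, and so did the Hr4 promoter summit, with 60.4% against 44.1%.

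**Figure D4:**
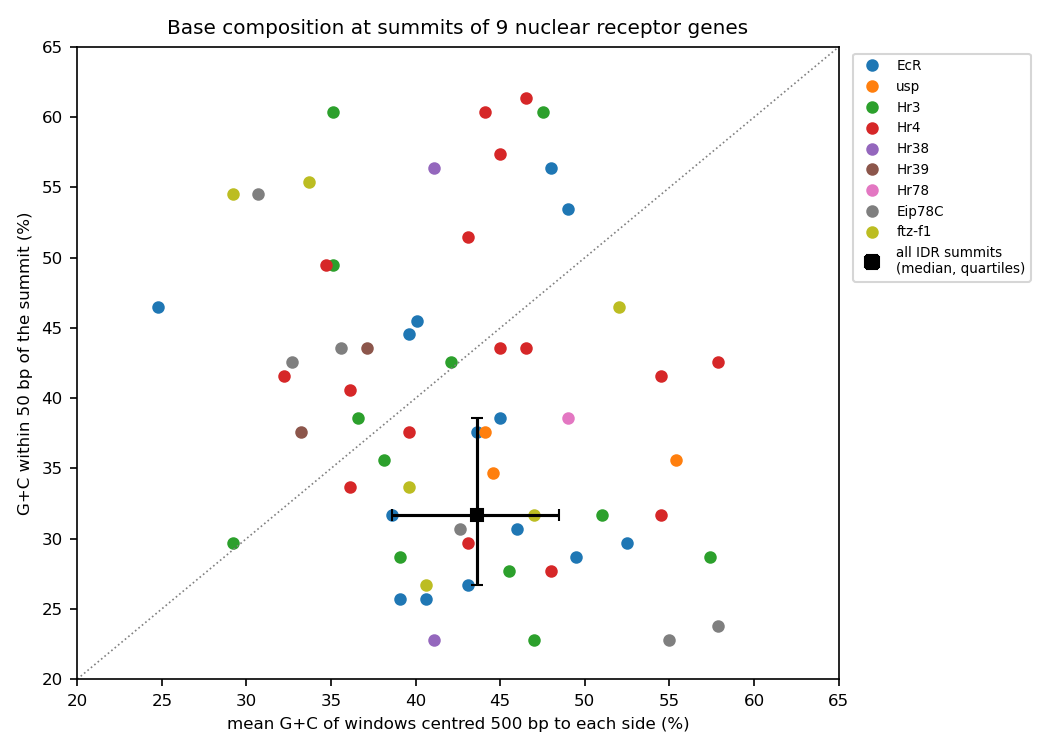
G+C within 50 bp of each summit (%) against the mean of windows centred 500 bp to each side (%), coloured by gene, with the median and quartiles of all IDR summits as a black square. Points of the 9 genes lie on both sides of the dotted line of equality, while the square, at 31.7% and 43.6%, lies below it.

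A further 3 lists were set beside the receptor genes. Their counts are read against the 36.7% of all protein-coding genes with a summit and the 22.2% with one within 1 kb of a TSS. The receptor genes had a median of 1.34 summits per 10 kb at a median length of 33.4 kb. Of 12 other nuclear receptor genes 7 had an IDR summit and 5 had one within 1 kb of a TSS, with a median of 0.628 per 10 kb at 8.48 kb. Eip75B, the Rev-erb relative of Eip78C, led them at rank 16, followed by knrl at 553 and Hr96 at 567. All 8 ecdysone-induced transcription factor genes had a summit within 1 kb of a TSS, with a median of 1.95 per 10 kb at 18.1 kb. Kr-h1, Sox14 and Eip74EF led them at ranks 1, 48 and 583. Of 8 nuclear receptor cofactor genes 4 had a summit and 2 a promoter summit, with a median of 0.376 per 10 kb at 16.2 kb. Those of best rank were tai at 216, Smr at 253 and nej at 531, so Hr4 and Eip78C at 61 and 58 stood above every cofactor gene of the list. The other receptor genes, led by Hr3 at 337, all stood below tai and Smr. The rank of 337 is that of the summit between Hr3 and Hdc, and the best summit inside Hr3 had rank 826. No test was made between these lists.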

How the data were processed

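Met-GFP ChIP-seq peak lists from 3 biological replicates of white prepupae, 1 group, were analysed, with replicate numbers from the labels. Per the labels' protocols chromatin was sonicated. Per the listings deposited with the libraries, the authors called relaxed peaks against a control file, per replicate and on all replicates pooled, and derived from these a list thresholded by IDR. For aligner and peak caller, names and versions were not given in the sources used here. Deposited dm6 lists give a signal value per peak, whose scale depends on depth, so it was used only to rank peaks within a list. Depth is unknown, and no interval could be given. The IDR list was checked to be the strongest 8513 of the 30000 pooled peaks. Lists in dm3 and the control were not used.

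Genes and TSSs came from Ensembl release 115 (BDGP6.54) without pseudogenes or transposable elements, and sequence from RefSeq Release 6, both in dm6 coordinates. Coordinates are 1-based. Distances between summit and TSS are negative upstream, and those of motifs from a summit run along the plus strand. A summit was matched in a replicate to the overlapping peak with the nearest summit, and replicate lists were taken to their 8513 strongest peaks. All members are described; each summit within 1 kb of a member's TSS and, its 3 strongest others are given, and other genes are named where they overlap or lie nearer to a summit, or lead a list. The members, lists and motifs were chosen with earlier results of these data known. The scripts (Python 3.11.15, pandas 2.3.3, numpy 2.4.6) were tested on simulated data. No statistical test was used. Alternatives were the strongest 4256 IDR peaks, the relaxed list, each replicate alone or left out, other windows and other overlap rules.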

Additional observations from a re-analysis of the deposited data

How the results depend on the processing

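Of 39 values of the main counts under the alternatives, 36 stayed within 1.5 times the value as reported. With the stronger 4256 IDR peaks alone the receptor genes held 30 summits, in 8 genes (Hr39 had 0), 5 of them with one within 1 kb of a TSS, and 30 summits were in all 3 replicates. With the pooled relaxed list they held 181 summits, and 8 genes had one within 1 kb. The IDR list was not remade without a replicate: leaving 1 out kept only the IDR summits found in both others. This gave 54 to 55 summits, 9 genes, and 5 to 6 genes with one within 1 kb of a TSS. The count of summits in every remaining replicate is then the same 54 to 55 by construction, not a separate result. A window of 500 bp, or only summits nearest to an own TSS, left 6 genes with a promoter summit. Overlap of at least 50% of both peaks left 42 summits in all 3 replicates, and the whole relaxed lists held all 62. The gene body alone held 54 summits. Among single genes 79 of 99 counts stayed within 1.5 times. Without replicate 1 or replicate 2, Hr39 held 1 summit and ftz-f1 3, and without replicate 3 Hr39 held 1. No paired analysis was possible because there was 1 group and no test. The depth of the libraries is unknown, so weak peaks absent from a list were not shown to be absent from the genome.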
